A study of Mus musculus with 12 samples.

Results

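Mouse annotations hold a small set of gene models that lie over tandem satellite DNA, and 10 of them are described here out of the 38339 genes of the deposited expression table. They are Gm10800, Gm10801, Gm10719, Gm10717, Gm21738, Gm11168, Gm26870, Gm10720, Gm10715 and Gm17535, matched by gene symbol, and all 10 were found. They were chosen by measured values, namely their levels and their differences between dexamethasone and vehicle in these same 12 libraries, so both are given below as a description and nothing is read from how many of them moved.

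The libraries came from a study of how acute lymphoblastic leukemias of the T lineage (T-ALL) resist dexamethasone in mice. Primary T-ALLs on a C57BL/6 x 129Sv/Jae F1 background were transplanted into recipient mice, and moribund recipients received vehicle (VEH) or the glucocorticoid dexamethasone (DEX) 4 h before they were killed. Marrow cells were freed of red cells by lysis, and their total RNA was extracted with Trizol and sequenced. The 6 leukemias are numbered here, with leukemia 1 for code 73A-46B, leukemia 2 for 73M-19A, leukemia 3 for 78A-143B, leukemia 4 for 2M-127B, leukemia 5 for 20M-116B and leukemia 6 for JW-81-59B. Each gave 1 VEH library and 1 DEX library from different recipients, so the 2 groups of 6 differ by label in the agent given, and n = 6 leukemias in each comparison. A recipient's marrow also holds its own blood cells, and in such bulk RNA a lower level from fewer cells of a type cannot be told apart from less RNA per cell. Levels are in FPKM, fragments scaled by transcript length and library size, and differences are DEX minus VEH on the log2(FPKM + 1) scale, which understates changes of low genes.

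Mouse chromosomes carry long arrays of satellite repeats beside their centromeres, and the major satellite, also called gamma satellite, is the most abundant of them. These arrays are packed as heterochromatin, which depends on the histone methyltransferases Suv39h1 and Suv39h2, on HP1 proteins and on DNA methylation, and both strands of the arrays can be transcribed. The arrays are largely missing from genome assemblies, so the few copies that an annotation holds can collect reads from copies elsewhere.

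The gene models lie at 3 loci of GRCm38, the assembly that mm10, the build named in the submitters' processing notes, corresponds to (positions from GENCODE M21). On chromosome 2, Gm10801 (ENSMUSG00000075015, chr2:98662237-98664083, plus strand) and Gm10800 (ENSMUSG00000075014, chr2:98666547-98667301, minus strand) lie side by side. On chromosome 9, the lincRNA model Gm26870 (ENSMUSG00000097312, chr9:3000282-3038313, minus strand) spans the 6 plus-strand members there. These are Gm11168 (ENSMUSG00000096385, chr9:3003346-3006948), Gm10720 (ENSMUSG00000074564, chr9:3015654-3017210), Gm10719 (ENSMUSG00000095547, chr9:3017408-3021593), Gm10717 (ENSMUSG00000095891, chr9:3025417-3033289), Gm17535 (ENSMUSG00000096736, chr9:3034599-3035805) and Gm10715 (ENSMUSG00000096201, chr9:3036877-3038316). Gm21738 (ENSMUSG00000095280, chr14:19415857-19418930, minus strand) lies alone on chromosome 14. All but Gm26870 are annotated as protein coding, and none has a known function. In the same span and on the same strand lie 3 further models that share their sequence and are described later, Gm10722 (chr9:3000922-3002330), Gm10721 (chr9:3013140-3014344) and Gm10718 (chr9:3023547-3025218). The nearest gene models outside the 3 loci, Gm13806, Gm13809, 4930433N12Rik, Gm9637 and Gm7352, did not exceed 0.08 FPKM in any library.

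The label was checked against the sequence. Shifted against itself by 30 to 299 bases, a member's transcript matched best at 234 bases in 19 of 26 transcripts and at 234 or 237 bases in 24 of 26. The transcripts of Gm10800 and Gm10801, the models of chromosome 2, matched best at other shifts, with 56.3% and 52.75% of bases the same. In the transcripts of Gm26870, 95.9%, 81.5% and 78.3% of bases were the same 234 bases further on. In the other models the share at the best shift was lower, at most 69.7% (a transcript of Gm10717). Gm26870 and the other 9 models are written on opposite strands of the repeat. None of the 21-base words in Gm26870's exons occurred in another member on the same strand, while 15.0% (Gm10801) to 53.0% (Gm10719) of them occurred in reverse complement. Among the other 9 models the shared words were all on the same strand. The share ran from 10.9% of Gm10717's words found in Gm10801 to 95.2% of Gm17535's words found in Gm10717. The longest word held by all 10, with Gm26870 read in reverse complement, had 30 bases and was CAGTGTGCATTTCTCATTTTTCACGTTTTT. One stretch of 234 bases is given for 5 members, because they hold the highest mean levels with DEX and come from all 3 loci. Each is printed 5′ to 3′ along its own GENCODE M21 transcript, and capitals mark the 12-base words that all 10 members hold, again with Gm26870 read in reverse complement.
Gm26870: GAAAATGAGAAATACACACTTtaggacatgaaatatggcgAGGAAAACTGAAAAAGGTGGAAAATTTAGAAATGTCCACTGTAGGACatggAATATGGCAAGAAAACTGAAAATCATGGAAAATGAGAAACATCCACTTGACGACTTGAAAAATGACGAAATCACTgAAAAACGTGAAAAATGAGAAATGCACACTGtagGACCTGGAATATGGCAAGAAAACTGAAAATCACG
Gm10800: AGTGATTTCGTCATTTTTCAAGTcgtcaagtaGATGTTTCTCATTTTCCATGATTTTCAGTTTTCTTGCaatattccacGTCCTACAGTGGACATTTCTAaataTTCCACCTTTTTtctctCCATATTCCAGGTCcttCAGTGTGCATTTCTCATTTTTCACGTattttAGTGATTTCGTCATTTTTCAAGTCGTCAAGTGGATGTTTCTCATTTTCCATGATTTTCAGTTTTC
Gm10801: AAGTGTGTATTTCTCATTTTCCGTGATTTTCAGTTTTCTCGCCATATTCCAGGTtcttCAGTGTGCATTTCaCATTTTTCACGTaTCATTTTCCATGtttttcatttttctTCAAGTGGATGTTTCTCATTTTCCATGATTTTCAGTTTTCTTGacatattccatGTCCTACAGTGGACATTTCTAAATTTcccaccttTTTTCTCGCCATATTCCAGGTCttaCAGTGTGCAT
Gm10719: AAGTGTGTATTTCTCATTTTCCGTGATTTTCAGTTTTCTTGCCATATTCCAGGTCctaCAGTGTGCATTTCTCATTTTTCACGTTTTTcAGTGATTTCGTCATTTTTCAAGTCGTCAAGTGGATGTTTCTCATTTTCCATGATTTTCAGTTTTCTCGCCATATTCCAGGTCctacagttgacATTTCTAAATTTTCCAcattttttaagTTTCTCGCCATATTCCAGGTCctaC
Gm21738: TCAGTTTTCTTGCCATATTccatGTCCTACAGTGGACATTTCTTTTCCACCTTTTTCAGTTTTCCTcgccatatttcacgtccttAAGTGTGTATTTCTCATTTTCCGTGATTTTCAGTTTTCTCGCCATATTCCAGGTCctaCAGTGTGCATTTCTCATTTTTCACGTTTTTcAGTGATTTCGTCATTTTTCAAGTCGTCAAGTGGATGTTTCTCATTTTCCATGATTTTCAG
Capitals cover 192 of the 234 bases in Gm10801, 198 in Gm10800, 205 in Gm10719 and 207 in both Gm21738 and Gm26870. Each stretch was taken where capitals were most frequent, in the member's transcript that best matched itself when shifted. These counts are thus the highest of the transcript and not typical of the model. Matches at the length of the reads were not tested. How reads that match several models were assigned is not given in the sources used here, nor is whether the counting used strand. The split of reads among these models, and between Gm26870 and the models it overlaps, is therefore uncertain.

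**Figure D1:**
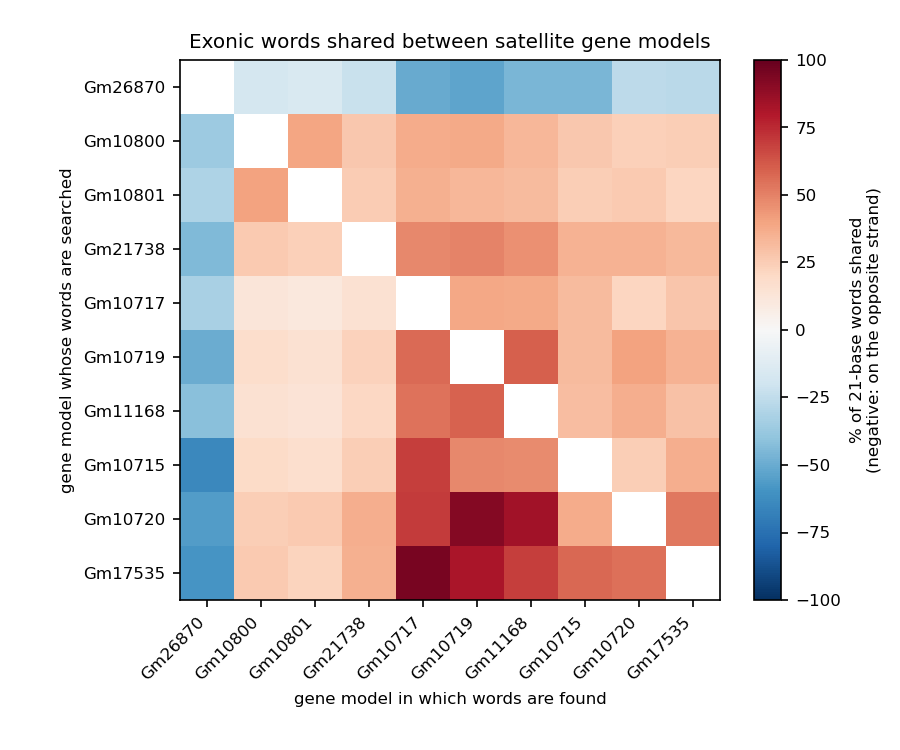
Share of each gene model's exonic 21-base words (rows) found in each other model (columns), in percent, with words found on the opposite strand shown as negative. Gm26870 shares words with the other 9 only on the opposite strand, and the 9 share with each other on the same strand, up to 95.2%.

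The 12 libraries were checked as a whole before the members were compared. The deposited table gives no counts, and a fragment length of 150 bases was assumed. Depth was estimated from the most frequent FPKM step, scaled by transcript length, of genes with few fragments, taken as a single fragment. It came to 1.17e+07 to 3.64e+07 fragments in 11 libraries and was not resolved in the VEH library of leukemia 2. The description of 9 libraries ends in an S-number and that of the DEX libraries of leukemias 2, 5 and 6 does not. What the S-number stands for is not given, so results are also shown for both sets of leukemias. T-lineage markers summed to 1289 to 2052 FPKM with VEH and 1200 to 1772 FPKM with DEX, so these transcripts of the labelled cell type were present in every library. That sum was higher with DEX in 0 of 6 leukemias, and limma called 3 of the 7 markers lower (Cd3g, Lck and Cd2) and 0 higher. Over all genes tested, 9.28% were called lower and 4.27% higher. Markers of granulocytes and monocytes summed to 2270 to 9037 FPKM with VEH and 1476 to 5272 FPKM with DEX, and the DEX library was the higher of the pair in 1 of 6 leukemias. Of these 9 markers, limma called 1 lower (Ltf) and 0 higher. Erythroid markers ranged from 8.67 to 1178 and from 14.2 to 150.6 FPKM, and B-lineage markers from 1.18 to 51.3 and from 1.12 to 8.34 FPKM, in VEH and DEX. Only 5 of 9 erythroid and 1 of 7 B-lineage markers were tested, and 0 were called. None of the 32 markers was at 0 in every library. Their part in the members' levels was not tested.

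The members' reads were a measurable part of the libraries. Summed over the 10 models, the level was 317.5 FPKM at its lowest, 1249 at the median and 3530 FPKM at its highest with VEH, and 2911, 6874 and 15836 FPKM with DEX. Taken as fragments (FPKM times mean transcript length), this was 0.0345% to 0.381% of all fragments with VEH and 0.313% to 1.63% with DEX. The groups overlapped, since the VEH library of leukemia 6 (3530 FPKM) lay above the DEX library of leukemia 1 (2911 FPKM). Within each leukemia the DEX library was the higher. The log2 change of the sum was 0.63 in leukemia 1, 2.32 in leukemia 2, 2.12 in leukemia 3, 5.58 in leukemia 4, 2.85 in leukemia 5 and 2.17 in leukemia 6, with a mean of 2.61 ± 1.63 (SD, n = 6). As a geometric mean that is 6.11-fold, with single leukemias between 1.55-fold and 47.8-fold. Leukemia 4 had the lowest VEH library of all and the next-to-highest DEX library. Leukemia 6 was high in both arms.

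In the limma fit over the 12358 genes that reached 1 FPKM in at least 6 libraries, 528 genes rose with DEX (4.27% of those tested) and 1147 fell (9.28%), and the median log2 difference was -0.05. All 10 members passed that filter. Gm11168, Gm10720, Gm10715 and Gm17535 were below 1 FPKM in at least 1 VEH library, and 6 members reached 1 FPKM in all 12. Gm17535 reached 1 FPKM in 1 VEH library and all 6 DEX libraries, so it passed through the group in which it is high. All 10 were called higher and 0 lower (adjusted p from 0.00274 to 0.0225), which describes how they were chosen. Their log2 differences ran from 1.97 (Gm10715) to 3.87 (Gm10801) with a median of 2.44. Of the 29 tested genes with a log2 difference of at least 2, 9 were members. Their standard errors (0.30 to 0.53) were all above the median of all tested genes (0.0989). The DEX library was the higher in all 6 leukemias for 9 members, against 5.97% of all genes tested. In 3 members (Gm10801, Gm10719 and Gm21738) every DEX library lay above every VEH library, against 0.388% of genes tested. Without the pairing by leukemia, 3 of the 10 were called, and the adjusted p of the other 7 lay between 0.0502 and 0.085. That fit called 35 of all 12358 genes higher.

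**Figure D2:**
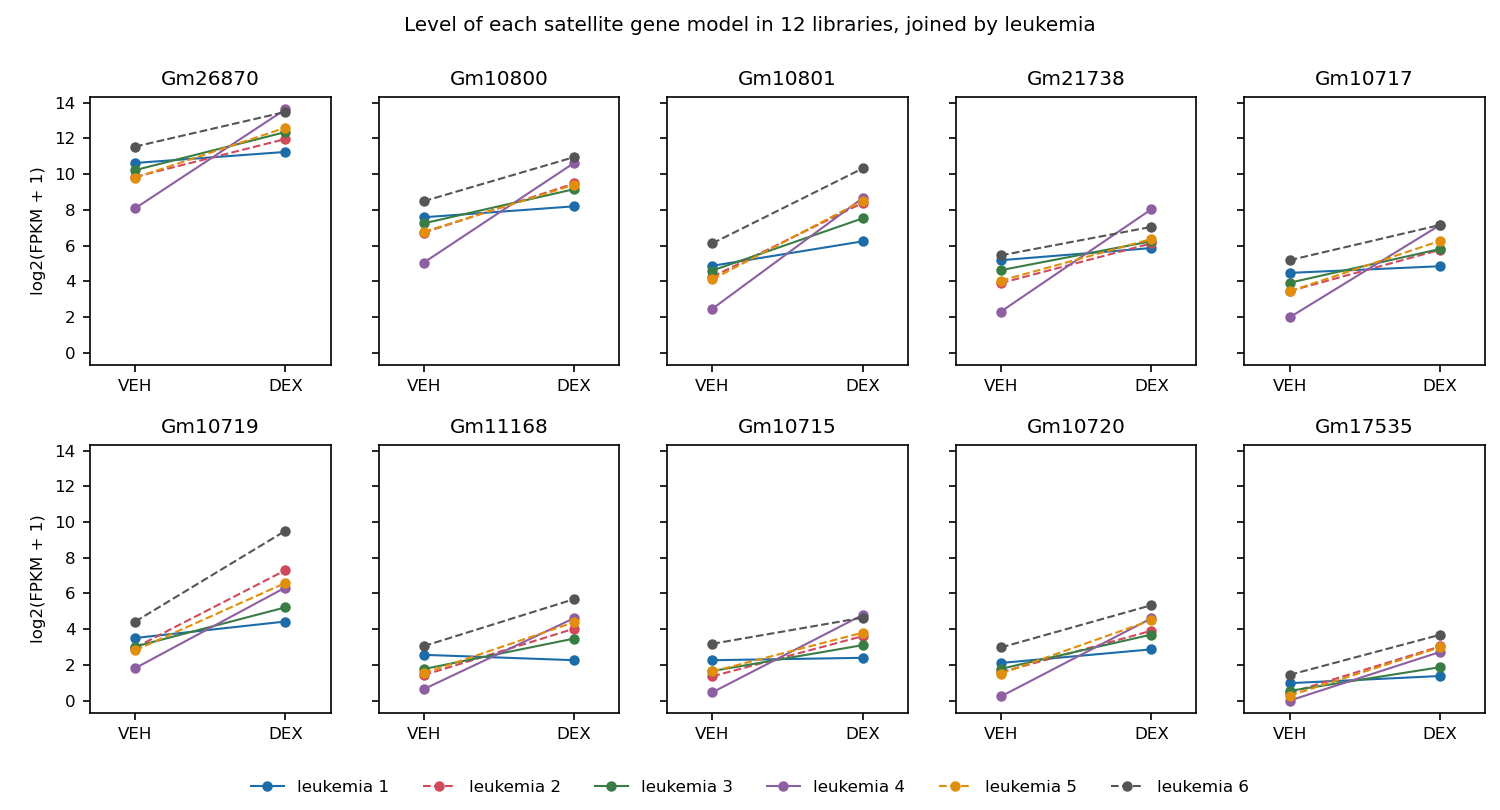
Level of each of the 10 gene models, log2(FPKM + 1), in the VEH and DEX library of each leukemia, joined by a line; dashed lines mark leukemias 2, 5 and 6, whose DEX library has no S-number in its description. Lines rise in every panel except for leukemia 1 in Gm11168, and leukemia 4 has the steepest line in 9 panels.

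Gm26870, the antisense lincRNA model of chromosome 9, held most of the signal. Its level with VEH was 270.6 FPKM at the lowest, 1056 at the median and 2981 FPKM at the highest, and with DEX 2423, 5719.6 and 12648 FPKM. In leukemia 4 it went from 270.6 to 12648 FPKM, 46.7-fold, and in leukemia 1 from 1578 to 2423 FPKM, 1.54-fold. The other 4 leukemias changed between 3.84-fold and 6.98-fold. Its log2 difference was 2.53 (SE 0.50, limma adjusted p = 0.0145). The highest VEH library (leukemia 6) lay above the lowest DEX library (leukemia 1), so the groups overlapped.

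Gm10800, the minus-strand model of chromosome 2, was the next highest of the 10 in every library. Its levels were 32.0, 129 and 357 FPKM (lowest, median and highest) with VEH and 292, 694 and 1979.6 FPKM with DEX. The log2 difference was 2.66 (SE 0.50, limma adjusted p = 0.0116). Its groups also overlapped, through leukemia 6 with VEH and leukemia 1 with DEX. Single leukemias changed between 1.53-fold (leukemia 1) and 49.4-fold (leukemia 4).

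Gm10801, its plus-strand neighbour, had the largest log2 difference of the 10. It was listed at 4.5, 20.6 and 68.7 FPKM with VEH and at 74.4, 349.9 and 1277 FPKM with DEX. The lowest DEX library (leukemia 1) was above the highest VEH library (leukemia 6), so the groups did not overlap. The log2 difference was 3.87 (SE 0.49, limma adjusted p = 0.00274), the fourth largest of all genes tested. The change was 2.64-fold in leukemia 1, 7.87-fold in leukemia 3, between 18.6-fold and 22.5-fold in leukemias 2, 5 and 6, and 89.6-fold in leukemia 4.

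Gm10719, a plus-strand model of chromosome 9, was listed at 2.52, 7.0 and 20.5 FPKM with VEH and at 20.6, 87.7 and 729.8 FPKM with DEX. Its lowest DEX value (leukemia 1) and its highest VEH value (leukemia 6) almost touched. The log2 difference was 3.47 (SE 0.49, limma adjusted p = 0.0041). Leukemia 6 rather than leukemia 4 had the largest fold, 35.7 against 31.6.

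Gm21738, the model of chromosome 14, was listed at 3.94, 19.5 and 42.8 FPKM with VEH and at 57.0, 78.1 and 259.7 FPKM with DEX, with no overlap. Its log2 difference was 2.36 (SE 0.53, limma adjusted p = 0.0225). One library stood apart here, the DEX library of leukemia 4, where the change was 65.9-fold against 1.62-fold to 5.29-fold in the other 5 leukemias. Without leukemia 2 or without leukemia 5 its adjusted p was 0.0526 and 0.0653, past the threshold of 0.05.

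The other 5 models, all on the plus strand of chromosome 9, were lower. Gm10717 was listed at 2.94, 12 and 35.3 FPKM with VEH and at 27.7, 65.3 and 141 FPKM with DEX, a log2 difference of 2.42 (SE 0.48). The levels of Gm10717 followed those of Gm26870 more closely than did any other pair of members (r = 0.998 over the 12 libraries, on the log2 scale). Gm11168, Gm10720, Gm10715 and Gm17535 had VEH medians of 2.14, 2.23, 2.13 and 0.405 FPKM and DEX medians of 17.6, 17.9, 12.1 and 6.27 FPKM. Their log2 differences were 2.25, 2.45, 1.97 and 2.00, with adjusted p from 0.00491 to 0.0198 in limma. Each of the 4 had overlapping groups. Gm11168 was the one member that was lower with DEX in a leukemia, at 4.92 FPKM with VEH and 3.81 FPKM with DEX in leukemia 1. Gm17535 was listed at 0 in the VEH library of leukemia 4, so no fold is given there.

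**Figure D3:**
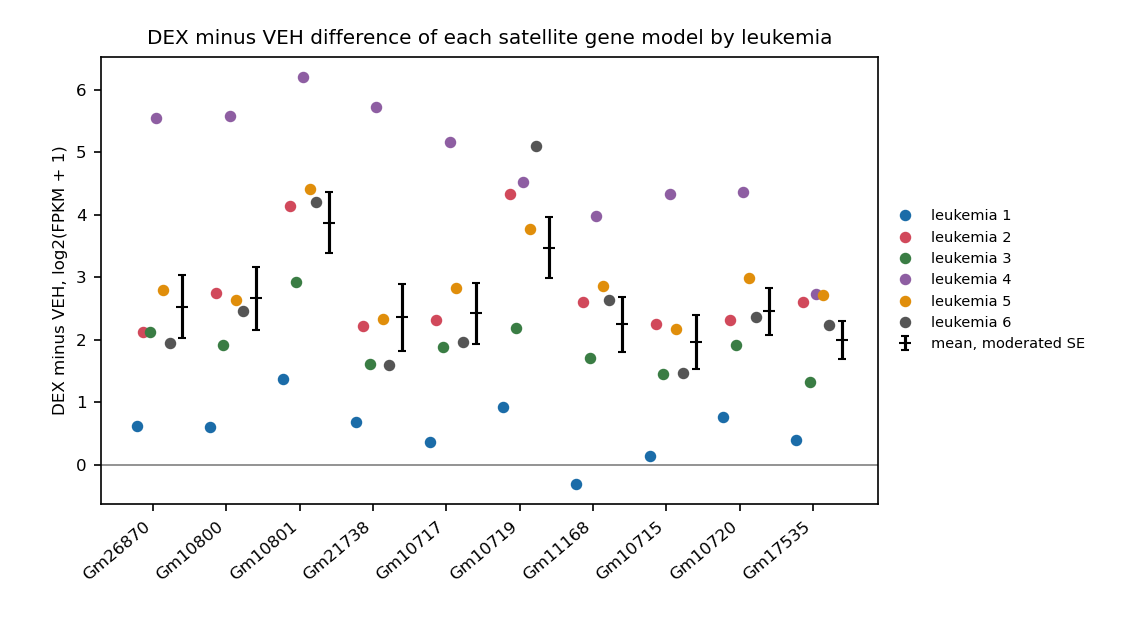
DEX minus VEH difference of log2(FPKM + 1) for each gene model (horizontal axis) in each of 6 leukemias (coloured points), with the mean and its moderated standard error in black. Leukemia 1 is the lowest point in every model, and 1 point, Gm11168 in leukemia 1, lies below 0.

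The order of the levels was nearly the same in both groups. Gm26870, Gm10800 and Gm10801 led in that order by their means, and in the DEX libraries they did so in 6 of 6. With VEH, Gm10801 was above Gm21738, the next in order, in 4 of 6 libraries, so these neighbours were not separated. Gm10719 moved from the sixth place with VEH to the fourth with DEX, where it was above Gm21738 in 3 of 6 libraries. At the low end, Gm11168, Gm10715 and Gm10720 were each above the next of them in 3 to 5 of 6 libraries, and Gm17535 was the lowest throughout. Over the 12 libraries the members' log2 levels were correlated with r from 0.83 (Gm10719 with Gm21738) to 0.998 with a median of 0.97 over 45 pairs. Over the 6 VEH libraries alone r ran from 0.90 to 0.999. The points share library and depth and the members share sequence, so these r are a description only.

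The make-up of the signal differed among DEX libraries. Gm10801 stood at 1.66% to 2.30% of Gm26870's FPKM in the 6 VEH libraries, at 3.07% to 3.49% in the 3 DEX libraries with an S-number, and at 5.89% to 11.2% in the 3 without. Its share was thus higher with DEX in 6 of 6 leukemias, and highest in the libraries of leukemias 2, 5 and 6. For Gm10719 the share was 0.599% to 0.931% in the 9 libraries with an S-number and 1.54% to 6.37% in the 3 without. No overlap remained between these sets of libraries for Gm10719, whereas VEH and DEX libraries with an S-number did overlap. Gm11168, Gm10720 and Gm17535 were also at their highest shares in the 3 libraries without an S-number (0.322% to 0.440%, 0.345% to 0.351% and 0.104% to 0.179%). Gm10717 kept a near-constant share of 1.05% to 1.34% in all 12. Gm10800 was at 10.9% to 12.6% in 10 libraries, and at 17.8% and 17.3% in the DEX libraries of leukemias 2 and 6. In the VEH libraries, which all have an S-number, Gm10719's share was 0.745%, 0.680% and 0.686% in leukemias 2, 5 and 6. It was 0.657%, 0.599% and 0.931% in leukemias 1, 3 and 4. For Gm10801 the shares with VEH were 1.96%, 1.825% and 2.30% against 1.79%, 1.95% and 1.66%. With DEX, the S-number cannot be told apart from leukemias 2, 5 and 6, since it is missing from their DEX libraries alone.

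**Figure D4:**
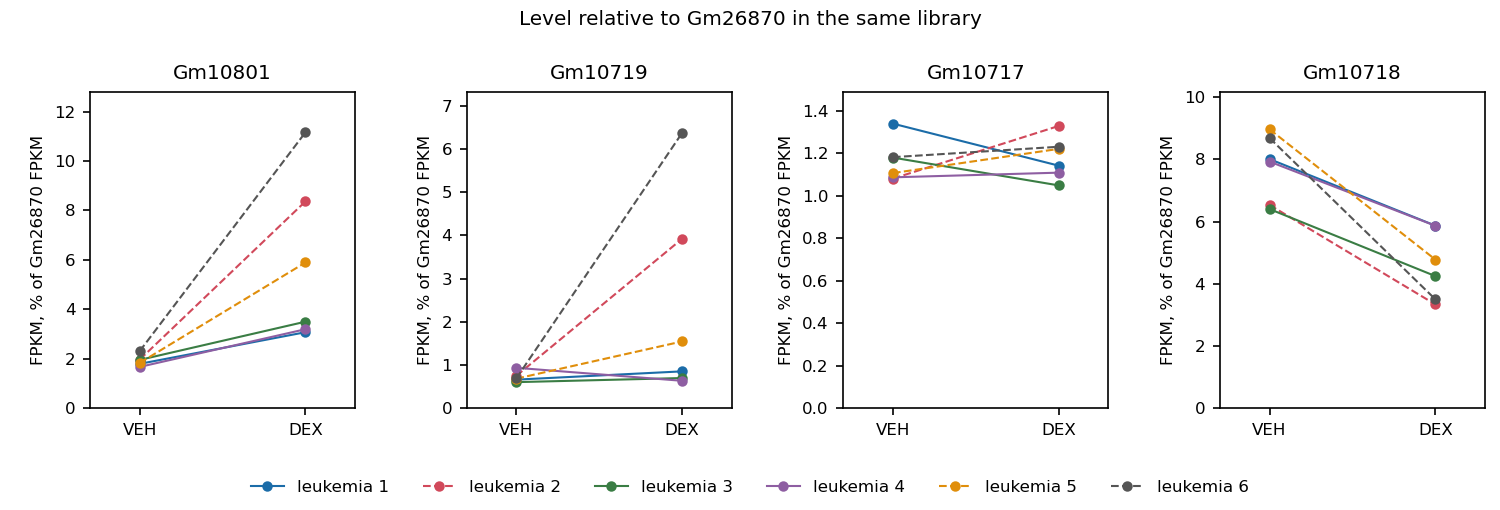
FPKM of 3 members (Gm10801, Gm10719, Gm10717) and of Gm10718, which shares their sequence, as a percentage of the FPKM of Gm26870 in the same library, joined by leukemia; dashed lines mark leukemias whose DEX library has no S-number. Gm10719 is at 1.54% or more only in the 3 dashed DEX libraries, and Gm10718 is lower with DEX in all 6 leukemias.

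In leukemias 1, 3 and 4 alone, where both libraries have an S-number, limma called 0 of the 10 members, with 10 of 10 at an unadjusted p under 0.05, adjusted p from 0.053 to 0.184 and log2 differences from 1.48 to 3.50. In leukemias 2, 5 and 6 alone it called all 10, with log2 differences from 1.96 to 4.40. Over all 12358 genes tested, 388 were called higher in the former set and 188 in the latter. The summed level was higher by a log2 mean of 2.78 ± 2.54 (SD, n = 3) in the former and 2.45 ± 0.36 (SD, n = 3) in the latter. The difference between the sets was not tested. Leaving out leukemia 5 left 5 members called (adjusted p of the other 5 from 0.051 to 0.0653), and leaving out leukemia 2 left 8. Over all genes, 233 and 358 were called higher in these fits, against 528 with all leukemias. Each of the other 4 leukemias could be left out with all 10 called.

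Only 3 further gene models shared at least 50% of their exonic 21-base words with the members, and the number was the same at 10%. Gm10721 (95.4% of words) was listed at 0.32, 1.97 and 4.93 FPKM with VEH and at 4.45, 12 and 50.8 FPKM with DEX, a log2 difference of 2.34 (SE 0.41, limma adjusted p = 0.00865). Gm10718 (92.0%) was the third most abundant of all 13 models with VEH, at 21.5, 78.1 and 259.1 FPKM, against 133.5, 259.4 and 742 FPKM with DEX. Its log2 difference of 1.73 (SE 0.53) did not pass the test (limma adjusted p = 0.0615), and relative to Gm26870 it was lower with DEX in 6 of 6 leukemias, at 6.40% to 8.97% with VEH and 3.34% to 5.87% with DEX. Without leukemia 4 it was called, at a log2 difference of 1.07 and an adjusted p of 0.0297. Limma also called Gm10718 among genes of at least 1 FPKM in all 12 libraries (adjusted p = 0.0465). The same held in leukemias 2, 5 and 6 alone (adjusted p = 0.0267), and in no other alternative fit. Gm10722 (90.2%) stayed at or below 3.03 FPKM and was not tested. As reads can be split between these models and the members, they are no independent evidence.

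Reads on genes that blood cells are not known to transcribe can give a level of background, such as reads from DNA, that is independent of how the members were chosen. The 1544 olfactory, vomeronasal and trace-amine receptor genes summed to 54.8 to 125.3 FPKM with VEH and 61.5 to 159.8 FPKM with DEX. Their log2 change was 0.12 ± 0.33 (SD, n = 6), higher in 4 of 6 leukemias (exact sign-flip test, two-sided, p = 0.406, adjusted over 3 measures p = 0.531). That sum was mostly that of 16 receptor genes at 1 FPKM or more in some library, so its test says little of background. With them left out, a choice made after seeing the data, the remaining 1528 summed to 6.57, 7.40 and 10.8 FPKM with VEH and 12.9, 14.9 and 25.4 FPKM with DEX, and the groups did not overlap. Their log2 change was 1.08 ± 0.52 (SD, n = 6), higher in 6 of 6 leukemias (exact sign-flip test, two-sided, p = 0.03125, the smallest that 6 differences can give, adjusted p = 0.0938). That adjustment was again over 3 measures, with this sum put in place of that of all receptor genes rather than added. The DEX library of leukemia 4, with the largest difference of the members, also had the highest sum of these quiet receptor genes and the most of them above 0, namely 460 against 57 in its VEH library. A count above 0 depends on depth, estimated at 2.96e+07 fragments in that DEX library and 1.95e+07 in that VEH library.

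The members were also set against those quiet receptor genes, a ratio chosen after seeing the data and given as a description, since the members were chosen for their change. Their summed FPKM was 48.3 to 431.5 times that of the quiet receptor genes with VEH and 197 to 1058 times with DEX. The log2 change of this ratio was -0.47, 1.96, 1.16, 3.63, 1.62 and 1.29 in leukemias 1 to 6, with a mean of 1.53 ± 1.33 (SD, n = 6). The ratio was higher with DEX in 5 of 6 leukemias and lower in leukemia 1. In geometric means, the members were 6.11-fold higher with DEX, the quiet receptor genes 2.11-fold and the ratio 2.89-fold. The part of such background in the members' change was not tested.

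**Figure D5:**
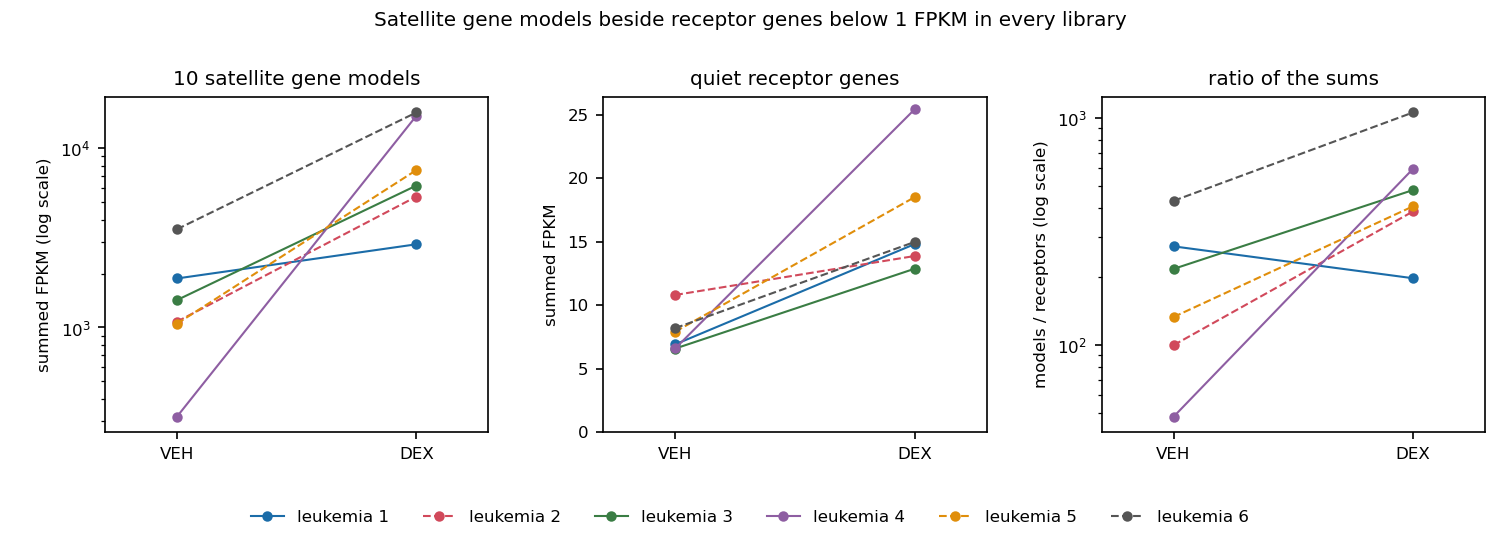
Summed FPKM of the 10 satellite gene models (left, log scale), of 1528 receptor genes below 1 FPKM in every library (middle) and their ratio (right, log scale) in VEH and DEX libraries, joined by leukemia; dashed lines mark leukemias whose DEX library has no S-number. The receptor sum is higher with DEX in all 6 leukemias and the ratio in 5.

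Depth and the share of small RNAs were compared in the same way. The estimated depth changed by a log2 mean of -0.43 ± 1.25 (SD, n = 6; exact sign-flip test, adjusted p = 0.531), a value that includes the unresolved library. Genes of small and ribosomal RNAs, mitochondrial ones included, by GENCODE biotype, held 61.7% to 65.8% of the summed FPKM with VEH and 62.4% to 71.0% with DEX (exact sign-flip test, p = 0.188, adjusted p = 0.531). Their share was 4.77 to 6.60 percentage points higher with DEX in leukemias 2, 5 and 6 and differed by -1.06 to 0.66 points in leukemias 1, 3 and 4, so it too differed with the S-number. Over the 6 leukemias, the change in the summed members had r = -0.19 (rho = -0.54) with that of all receptor genes, r = 0.09 (rho = -0.31) with depth and r = -0.21 (rho = 0.14) with the small RNA share. With the change of the quiet receptor genes r was 0.69 (rho = 0.43). Without the 2 leukemias farthest from the median of each measure, r was 0.09 for all receptor genes, 0.80 for depth, -0.34 for the small RNA share and 0.09 for the quiet receptor genes. The r with depth and with the quiet receptor genes thus rest on the leukemias included. For depth, r = 0.09 and rho = -0.31 include the unresolved library of leukemia 2, while r = 0.80 leaves out leukemias 1 and 2. Since the members were chosen on these changes, the r and rho are a description and no p is given.

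Genes known to act on heterochromatin or DNA methylation at satellites were read from the same fit. Of 33 such genes, all tested, 0 rose, 4 fell and 29 did not pass, with a median log2 difference of -0.09 beside -0.05 for all genes. Over all genes tested, 4.27% rose and 9.28% fell. By unadjusted limma p under 0.05, 3 of the 33 were higher and 11 lower, beside 9.69% higher and 20.5% lower over all genes. The genes that fell were Cdca7 (-0.80, adjusted p = 0.0006) and Hells (-0.57, adjusted p = 0.0216), partners in a chromatin remodelling complex needed for satellite DNA methylation, Setdb1 (-0.36, adjusted p = 0.0237), a histone H3 lysine methyltransferase, and Dnmt3a (-0.35, adjusted p = 0.0353), a DNA methyltransferase. Cdca7 was at 94.1, 166.6 and 234.6 FPKM with VEH and 48.5, 92.1 and 136.3 FPKM with DEX, and was lower in 6 of 6 leukemias. Hells was at 45.7, 57.8 and 82.1 FPKM with VEH and 27.0, 41.6 and 50.9 FPKM with DEX, also lower in 6 of 6. Hells and Setdb1 each lost the call without leukemia 1, 2 or 5 (adjusted p from 0.0557 to 0.0707), and Dnmt3a without leukemia 1, 2, 3, 4 or 5 (0.0629 to 0.105), under median-of-ratios scaling (0.0981) or quantile normalization (0.0562), while Cdca7 was called with any 1 leukemia left out. Without the pairing by leukemia, 0 of the 33 were called (1 higher and 5 lower at an unadjusted p under 0.05 in limma). Scaling changed the count, with 0 higher and 8 lower after rescaling to a fixed sum (TPM) and 1 higher and 3 lower under median-of-ratios scaling.

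The satellite methyltransferases themselves did not pass the test in limma. Suv39h1 was at 32.8 ± 2.62 FPKM with VEH and 32.1 ± 4.41 FPKM with DEX (SD, n = 6 each), a log2 difference of -0.04 whose sign changed with the scaling. Suv39h2 had a log2 difference of -0.24, and Cbx5, which encodes an HP1 protein, one of -0.24. The corepressor gene Trim28, at -0.18, and Uhrf1, at -0.26, whose product guides the maintenance DNA methyltransferase, passed after rescaling to TPM. Dnmt1, that methyltransferase, was at -0.09 and the remodeller gene Atrx at 0.000974, with a sign that changed with the scaling. Next by p were Ehmt1 (-0.28, adjusted p = 0.0542), Kdm4a (0.27, adjusted p = 0.0651) and Chaf1a (-0.27, adjusted p = 0.0673), none of which passed. Of 8 centromere protein genes 2 rose and 0 fell, with 2 higher and 0 lower at an unadjusted limma p under 0.05. Over all genes tested, 4.27% rose and 9.28% fell, with 9.69% higher and 20.5% lower at that unadjusted p. Cenpa, the centromeric histone H3 variant, rose by 0.40 (adjusted p = 0.0074) and Cenpn by 0.66 (adjusted p = 0.00473), each in 6 of 6 leukemias, and both were lost without the pairing (adjusted p 0.352 and 0.180). Cenpa also missed the threshold after rescaling to TPM (adjusted p = 0.0744). Of 7 nuclear RNA decay and small RNA processing genes, Dis3, an exosome nuclease, fell by 0.31 (limma adjusted p = 0.0363) and was lost without leukemia 1, 2, 4, 5 or 6 (0.0517 to 0.119), under median-of-ratios scaling (0.0826) and quantile normalization (0.0759), with a depth term (0.0555) and without the pairing (0.4196), while the other 6 did not pass.

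Genes outside the repeat most like the members were ranked by Pearson r with the mean member level over the 12 libraries, all on the log2 scale. The leading ones were Rwdd2a (r = 0.90), Gm20109 (0.87), Gm4673 (0.85) and Txnip (0.85). Txnip, a thioredoxin-binding protein and known glucocorticoid-induced gene, was at 85.4, 105.2 and 131.1 FPKM with VEH and 217.3, 284.7 and 424.1 FPKM with DEX. Rwdd2a was at 2.28, 2.94 and 4.32 FPKM with VEH and 3.45, 6.27 and 8.63 FPKM with DEX, with its lowest DEX library again in leukemia 1. These 4 were higher with DEX in 6 of 6 leukemias, and r over libraries of both arms includes that shared difference.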

How the data were processed

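The data are 1 table of FPKM values for 38339 genes in 12 libraries, deposited by the authors. Libraries were prepared with the TruSeq Stranded Total RNA kit and sequenced as 100 bp read pairs, per the labels' protocols. The submitters' processing notes name Bowtie2 (version 2), RSEM, edgeR and mm10, without their roles. The annotation, the handling of reads that match several loci and a DNase step are not given in the sources used here. Values were used as deposited.

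Members and lists were chosen with earlier results of these data known. Genes with at least 1 FPKM in at least 6 libraries were fitted on log2(FPKM + 1) with limma 3.58.1 in R 4.3.3, by lmFit with the leukemia as a block and eBayes with a mean-variance trend, and p-values were adjusted by Benjamini-Hochberg over all genes tested, with a threshold of 0.05. The pairing comes from the leukemia code in the titles, since both recipients of a code carry the same primary tumour. Recipients are separate mice, and each leukemia was sequenced once per arm. The fit was tested on simulated data. Sums and shares were computed from FPKM, with exact sign-flip tests for measures independent of the members. Depth was estimated from the FPKM steps of genes with few fragments, and the table holds no counts, so no counting interval is given. Words of 21 bases were compared between GENCODE M21 exons, and 37693 of the table's genes matched that annotation. Of the members, 0 were in the RefSeq tables.

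Genes named are the 10 members, the models sharing their sequence, 8 heterochromatin genes plus those of that list with the smallest p, up to 4 of the centromere and RNA decay list with the smallest p, and the 5 genes most alike, of which 1 is not reported here. Further genes named are those next to the loci. Alternatives changed the pseudocount, filter, scaling, block, variance model, depth term and leukemias included. The depth term uses the unresolved depth of the VEH library of leukemia 2, so results with it are uncertain.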

Additional observations from a re-analysis of the deposited data

Results flagged for a closer look

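Each group of 6 values was checked for a highest or lowest value far from the others relative to the group's range (Dixon's criterion, which flags about 1 in 20 groups by chance). Of 37 groups checked, 6 held such a value. Gm10801 stood apart in both libraries of leukemia 6, at 68.7 FPKM with VEH and 1277 FPKM with DEX. Gm10719 stood apart in the DEX library of the same leukemia, at 729.75 FPKM. Gm21738 stood apart in the DEX library of leukemia 4, at 259.73 FPKM, and so did its log2 difference in that leukemia, 5.72. The estimated depth of the VEH library of leukemia 2, 9.61e+07 fragments, also stood apart, and 14.2% of its genes with few fragments lay near that step, so the value is not resolved. The part of any of these libraries in the results was not tested beyond leaving each leukemia out in turn.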

How the results depend on the processing

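The members' log2 differences kept their direction in all 176 values from 18 alternative fits (1.48 to 4.40). The call was the same in 146 and was lost in 30. The number of members called higher, 10 with all data and the replicate block, was 4 with no filter on low values, 6 of 6 tested with FPKM of at least 1 in all 12 libraries, 3 with no replicate block, 0 in leukemias 1, 3 and 4 alone, and 5 to 10 with each leukemia left out in turn. Over all genes, 528 were higher and 1147 lower. These became 181 and 370 with no filter, 267 and 1820 after rescaling to TPM, 35 and 46 with no replicate block, and 188 and 257 in leukemias 2, 5 and 6 alone, and the number lower was 718 with median-of-ratios scaling and 523 in leukemias 1, 3 and 4 alone. With each leukemia left out in turn, 233 to 532 were higher and 425 to 1042 lower. Higher genes were 31.5% of calls, against 12.8% under TPM, 48.8% under median-of-ratios scaling and 43.6% under quantile normalization, and the median of all genes was -0.17 under TPM. Suv39h1 changed sign to 0.0248 under median-of-ratios scaling, 0.0168 under quantile normalization, 0.00645 with a depth term and 0.0481 in leukemias 1, 3 and 4 alone, and ranged from -0.0608 to 0.0123 with each leukemia left out. Atrx changed sign to -0.137 under TPM, -0.0318 under quantile normalization, -0.00227 scaled by protein-coding genes and -0.151 in leukemias 2, 5 and 6 alone, and ranged from -0.0428 to 0.085 with each leukemia left out. The causes were not tested. The summed level of the members was higher with DEX by 2.02 to 3.01 with each leukemia left out and by 2.95 without Gm26870, the latter chosen after seeing the data. Keratin-associated and beta-defensin genes in place of receptor genes changed by 1.44 ± 2.42 (SD). The sum of these genes was only 0.03 to 0.38 FPKM with VEH and 0.05 to 0.52 FPKM with DEX, near the floor of the listed values. Unknown read counts limit the precision of low values, and reads shared among repeat copies limit the value of any single member.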
